A study of Saccharomyces cerevisiae with 72 samples.

Results

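Chaperones and heat shock proteins were followed here through the response of budding yeast to the DNA alkylating agent methyl methanesulfonate (MMS). The 40 genes were taken by symbol from 5594 genes on one array design and 5592 on another, and each had 1 probe on both. They were divided by where the protein works into 26 cytosolic (with nucleus), 5 mitochondrial and 7 endoplasmic reticulum (ER) genes, plus the heat shock transcription factor gene HSF1 and the plasma membrane gene HSP30. The rule uses no measured value, but the list was drawn up with earlier results of these data known.

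Chaperones bind unfolded protein and help it to fold, keep it soluble, pull it out of aggregates or hand it on for destruction. Hsp70 proteins do this in cycles of ATP hydrolysis that J-proteins (Hsp40) start and nucleotide exchange factors end, Hsp90 finishes the folding of kinases and receptors with the help of cochaperones, and the Hsp104 disaggregase works with Hsp70 on aggregates. In yeast many cytosolic and some mitochondrial chaperone genes are induced by the heat shock factor Hsf1 and the general stress factors Msn2 and Msn4, whereas ER chaperone genes are induced by the unfolded protein response through Hac1.

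All strains were of the BY4741 background. Per the labels, cultures of 100 ml grown at 30 °C were split, and the treated part received MMS for 1 h, at 0.03% in the growth text and at 0.033% in the treatment text of the larger set. The larger set, called the kinase set, has 52 arrays of poly(A)-enriched RNA from strains lacking MEC1 or TEL1 (the checkpoint sensor kinases) or both (tel1mec1), RAD53 (the effector kinase) alone or with CHK1 or DUN1 (chk1rad53, dun1rad53), DUN1 (a kinase downstream of Rad53) alone or with CHK1 (chk1dun1), CHK1 (another effector kinase), SML1 (an inhibitor of ribonucleotide reductase), CRT1 (a repressor of ribonucleotide reductase genes) or STE11 (a kinase of the pheromone pathway), and from wild type. The factor set has 20 arrays of total RNA from strains lacking the transcription factor genes HAP1, HAP4, SUT1, RCS1 or YAP7, and holds no wild type. The labels give neither the number of independent clones nor the state of SML1 in strains without MEC1 or RAD53.

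Every array carried treated and untreated RNA of 1 strain, and its log2 ratio, turned so that MMS is on top, is called the response, and a positive value means more RNA after MMS. Each strain had 2 replicates, and each replicate was the mean of 2 arrays with opposite dyes. Array values below are given in the order replicate 1 with MMS in Cy5 and in Cy3, then replicate 2 with MMS in Cy5 and in Cy3. An array reports the mean of a culture, so a change in part of the cells and a smaller change in all of them cannot be told apart. The labels do not say that replicates were separate cultures, and p-values rest on the spread between these replicates, pooled over the strains of a set.

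Some arrays stood apart. Replicate 2 of dun1 with MMS in Cy5 goes against its label: the deleted gene DUN1 read 2.71, while the remaining dun1 arrays read -0.24 to -0.11, and MEC1 read -2.34, outside the range of -0.75 to 0.30 on the remaining kinase set arrays. For chk1rad53 replicate 1 with MMS in Cy3 the spread over genes was narrow (SD 0.198), where other arrays of that strain reached 0.400. For mec1, replicate 1 with MMS in Cy5 had the highest values of that strain for many chaperone genes. In wild type, replicate 1 with MMS in Cy3 had a median of 0.87 over the cytosolic genes, against 0.17 to 0.28 on the other arrays. That array enters the wild-type responses and every difference from wild type below. The SD over genes on single arrays was 0.321 to 0.477 in rad53, 0.330 to 0.398 in dun1rad53 and 0.327 to 0.419 in tel1mec1, against 0.506 to 0.636 in wild type, and results that depend on this spread are named below.

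In wild type, MMS raised the cytosolic stress chaperones most. Of the 40 genes, 21 were higher and 1 was lower at an adjusted p under 0.05 (limma with Benjamini-Hochberg adjustment over all genes), while 26.8% of all genes were higher and 25.4% lower. The median response was 0.33 over the 40 genes and 0.00 over all genes, and 5 of the 40 rose at least 2-fold. Those 5 were SSA4, HSP42, HSP26, HSP104 and HSP78. The share of all genes that rose at least 2-fold was not computed.

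SSA4 (YER103W), the stress-induced member of the cytosolic Hsp70 family, had array values of 1.49, 2.20, 1.77 and 2.12 in wild type. All of them lay above 1, and the response was 1.89 ± 0.07 (SD, n = 2), or 3.71-fold, with an adjusted p of 1.78e-09 by limma. HSP42 (YDR171W), a small heat shock protein gene whose product gathers misfolded protein into aggregates, had 1.83, 1.78, 2.04 and 1.66, the narrowest range of these 5 genes, with a response of 1.83 ± 0.03. HSP26 (YBR072W), the other cytosolic small heat shock protein gene, had 1.99, 1.73, 1.56 and 1.00, with a response of 1.57 ± 0.41. Both replicates of HSP26 were high but further apart than those of HSP42.

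HSP104 (YLL026W), the cytosolic disaggregase, had 0.74, 2.05, 1.05 and 1.55, with a response of 1.35 ± 0.07 (SD, n = 2). HSP78 (YDR258C), its counterpart in the mitochondrial matrix, had 0.94, 1.65, 0.77 and 1.48, with a response of 1.21 ± 0.12. Both genes were higher on the arrays with MMS in Cy3 than on those with MMS in Cy5, in each replicate. Averaging the dyes cancels a constant offset of this kind, and the SD between replicates then understates the spread between single arrays.

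Within the Hsp70 and Hsp90 families the stress-induced paralogs rose and the constitutive ones were not called, with SSA3 as an exception. SSA1 (YAL005C), a cytosolic Hsp70 gene expressed without stress and induced further by it, responded at 1.43 and 0.49 in the wild-type replicates, a mean of 0.96 ± 0.66 (SD, n = 2). SSA2 (YLL024C), its mostly constitutive paralog, had 0.46 and -0.37 and was not called (adjusted p 0.821 by limma). SSA3, a further stress-induced Hsp70 gene, had 0.21 ± 0.10 and was not called either.

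The ribosome-associated Hsp70 genes SSB1 (YDL229W) and SSB2 (YNL209W), which act on nascent chains, had -0.24 ± 0.13 and -0.21 ± 0.19 (SD, n = 2) in wild type and were not called. SSE2 (YBR169C), the stress-induced Hsp110 exchange factor gene, had array values of 0.52, 1.31, 0.53 and 1.22 and a response of 0.90 ± 0.03, while its paralog SSE1 had 0.12 ± 0.52 and was not called. HSP82 (YPL240C), the inducible Hsp90 gene, rose by 0.44 ± 0.38, and HSC82 (YMR186W), the constitutive one, had -0.04 ± 0.01 and was not called. SSA1 and SSA2, SSB1 and SSB2, and HSP82 and HSC82 are near-identical in sequence, so how far a probe of one also bound RNA of the other is uncertain.

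The Hsp90 cochaperones were mixed. In wild type SBA1 (the p23 homolog, which stabilises the closed form of Hsp90) rose by 0.61 ± 0.21 (SD, n = 2), AHA1 (an activator of the Hsp90 ATPase) by 0.60 ± 0.13, CDC37 (the kinase-specific cochaperone) by 0.58 ± 0.02 and CPR6 (a cyclophilin) by 0.56 ± 0.05. STI1, which links Hsp70 with Hsp90, had 0.20 ± 0.01 and HCH1, a relative of AHA1, had 0.10 ± 0.06, neither of them called. CNS1 (YBR155W), an essential tetratricopeptide cochaperone, was the 1 gene that fell, by 0.40 on the log2 scale (SD 0.08, n = 2; adjusted p 0.0135 by limma), with array values of -0.30, -0.39, -0.42 and -0.50, all negative. That call was lost without wild-type replicate 1 (-0.46, adjusted p 0.0550) and without wild-type replicate 2 (-0.35, adjusted p 0.158).

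Of the cytosolic J-proteins, SIS1 rose by 0.32 ± 0.20 (SD, n = 2) in wild type, and YDJ1 with 0.21 ± 0.12 and APJ1 with -0.01 ± 0.05 were not called. FES1 (YBR101C), a nucleotide exchange factor of cytosolic Hsp70, had 0.14 ± 0.15 and was not called. Of the paralogs that sort misfolded proteins to deposit sites, CUR1 rose by 0.75 ± 0.10 and BTN2 had 0.38 (SD 0.0011, n = 2) and was not called. The replicate means of BTN2 were nearly equal although its arrays ran from -0.70 to 1.45.

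Without wild-type replicate 1 the calls of HSP82 (0.17, adjusted p 0.579), SIS1 (0.19, adjusted p 0.377), CPR6 (0.53, adjusted p 0.0660), KAR2 (0.34, adjusted p 0.0524) and PDI1 (0.31, adjusted p 0.0785) were lost as well. Without wild-type replicate 2, those of KAR2 (0.34, adjusted p 0.0569), SCJ1 (0.13, adjusted p 0.414) and PDI1 (0.34, adjusted p 0.0615) were lost, and SSA2 (0.46, adjusted p 0.0386) and SSE1 (0.48, adjusted p 0.0418) passed. Scaling all arrays to one median absolute deviation also ended wild-type calls. They were those of HSP82 (0.30, adjusted p 0.164), SIS1 (0.22, adjusted p 0.116), SCJ1 (0.17, adjusted p 0.134), KAR2 (0.24, adjusted p 0.0598) and CPR6 (0.41, adjusted p 0.0528). All of these are limma p-values.

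By compartment, wild-type medians were close in the cytosol and the ER and lower in mitochondria, and the highest single genes were cytosolic. Of 26 cytosolic genes 13 rose and 1 fell, with a median of 0.35 and replicate medians of 0.47 and 0.26. Of 5 mitochondrial genes 2 rose, HSP78 and the J-protein gene MDJ1 (0.54 ± 0.04, SD, n = 2), with a median of 0.16. The matrix Hsp70 gene SSC1 (0.08 ± 0.19) and the chaperonin genes HSP60 (-0.02 ± 0.06) and HSP10 (0.16 ± 0.14) were not called.

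Of 7 ER genes 5 rose in wild type, with a median of 0.33 and replicate medians of 0.34 and 0.34, and none rose 2-fold. ERO1 (YML130C), the oxidase that drives disulfide formation, rose most, with array values of 0.49, 0.62, 1.01 and 0.94 and a response of 0.76 ± 0.30 (SD, n = 2). SIL1 (an exchange factor of the ER Hsp70) rose by 0.55 ± 0.10, KAR2 (the ER Hsp70, BiP) by 0.34 (SD 0.0017), PDI1 (protein disulfide isomerase) by 0.33 ± 0.02 and SCJ1 (an ER J-protein) by 0.22 ± 0.12. The Hsp110-like gene LHS1 (0.12 ± 0.24) and the J-protein gene JEM1 (0.24 ± 0.23) were not called. HSF1 rose by 0.56 ± 0.09, and HSP30 had 0.33 ± 0.06 and was not called.

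**Figure D1:**
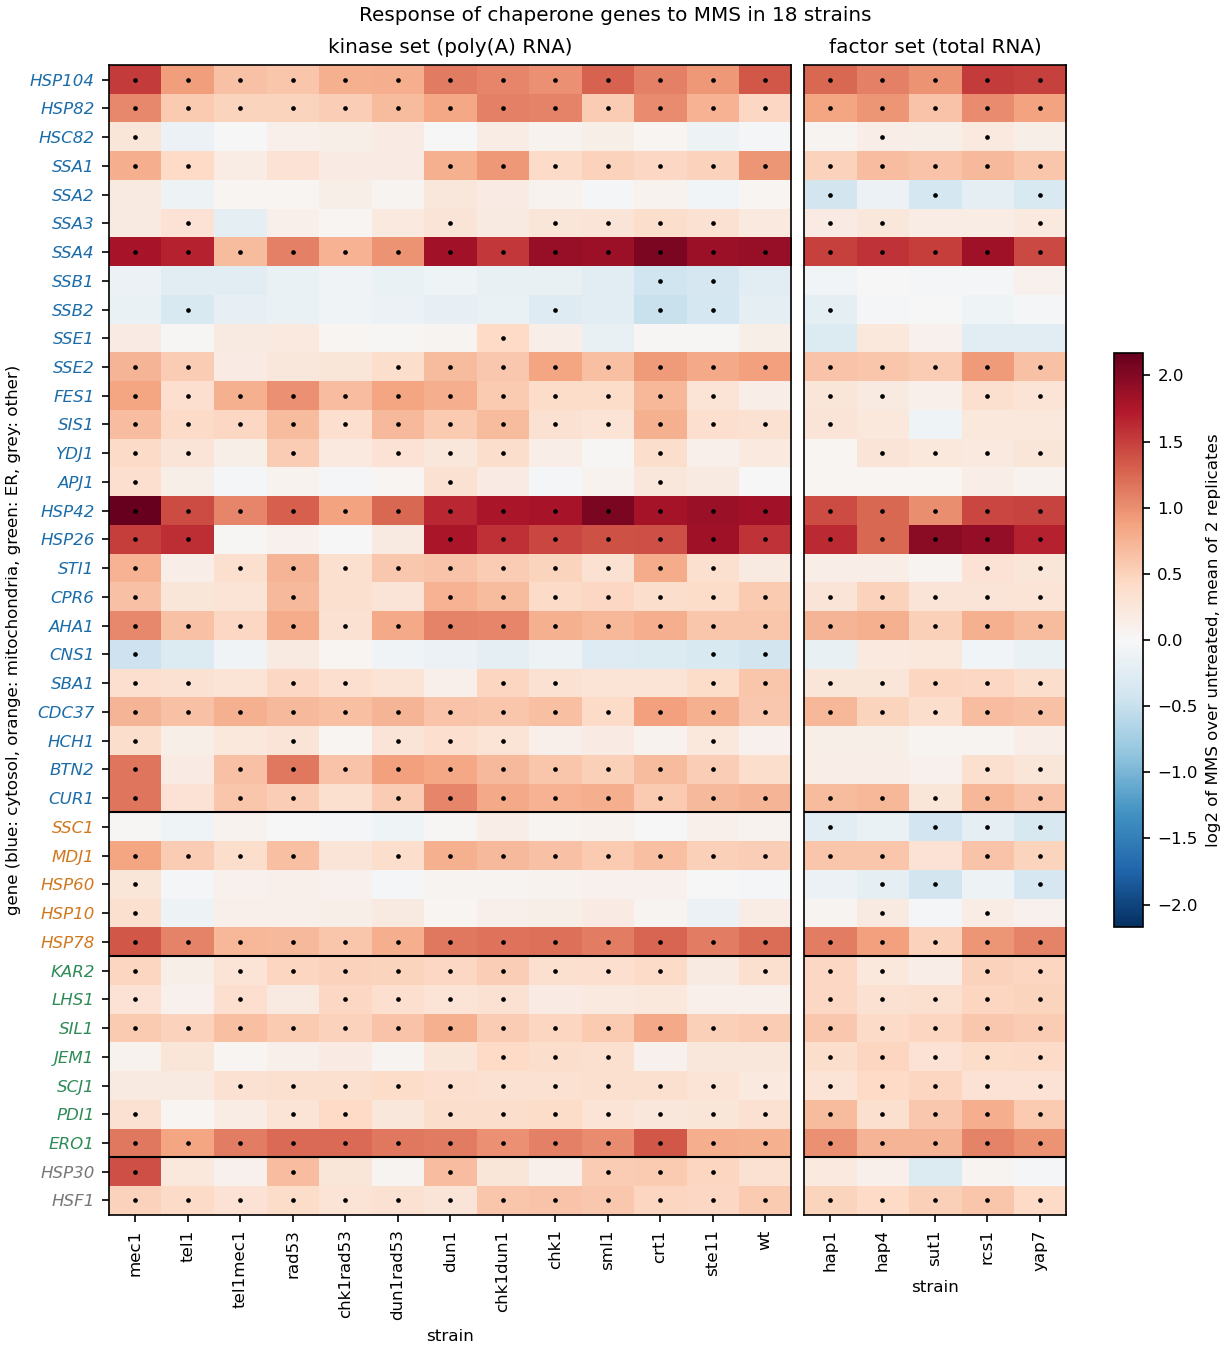
Response of the 40 chaperone genes (rows, by compartment) in 18 strains (columns), as log2 of MMS over untreated averaged over 2 replicates. Dots mark genes called at an adjusted p under 0.05 by limma. SSA4, HSP42, HSP104 and HSP78 are red in every column, while HSP26 is near white in tel1mec1, rad53, chk1rad53 and dun1rad53, with 0.03, 0.09, 0.01 and 0.20, against 1.57 in wild type.

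Across the 13 strains of the kinase set some of the genes were called higher in every strain, a pair was called in none and the others were called in some. Of 520 gene and strain pairs, 318 were higher and 9 lower. There were 11 genes that rose in all 13 strains, namely HSP104, HSP82, SSA4, SIS1, HSP42, AHA1, CDC37, HSP78, SIL1, ERO1 and HSF1. SSA2 and SSC1 were called in none, which does not show that they were unchanged, and the 9 lower calls belonged to SSB1, SSB2 and CNS1. Across all genes, between 11.2% (chk1rad53) and 28.0% (ste11) were higher in a strain. The share of all genes higher in all 13 strains was not computed and can be at most 11.2%.

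The number of the 40 genes that rose was 31 in mec1 (23.6% of all genes rose there), 19 in tel1 (25.7%), 19 in tel1mec1 (17.4%), 24 in rad53 (19.1%), 19 in chk1rad53 (11.2%) and 22 in dun1rad53 (19%). It was 29 in dun1 (21.8%), 29 in chk1dun1 (21.1%), 26 in chk1 (26.2%), 26 in sml1 (27%), 27 in crt1 (26.7%) and 26 in ste11 (28%), against 21 in wild type. Fewer of the 40 genes fell: 1 in mec1 (20.3% of all genes fell there), 1 in tel1 (21.9%), 1 in chk1 (23.2%), 2 in crt1 (23.9%), 3 in ste11 (23.5%) and 1 in wild type. In the other strains 0 fell, where the share of all genes was 14.6% in tel1mec1, 16.4% in rad53, 8.9% in chk1rad53, 15.3% in dun1rad53, 18.1% in dun1, 17.7% in chk1dun1 and 25.1% in sml1. The chaperone genes thus rose more often than genes in general in each strain, which describes a list assembled by function and is no test. The 12 deletion strains were each set against the same wild-type arrays below, so their differences are not independent of each other.

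In strains lacking RAD53, or TEL1 and MEC1 together, HSP26 stayed near its untreated level. HSP26 had array values of 0.15, 0.08, 0.02 and -0.13 in tel1mec1, and of -0.10, 0.12, 0.20 and 0.13 in rad53. It had 0.09, -0.17, -0.01 and 0.12 in chk1rad53, and 0.06, 0.66, -0.06 and 0.13 in dun1rad53, against 1.99, 1.73, 1.56 and 1.00 in wild type. Every array of these 4 strains lay below every wild-type array.

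The strain means of HSP26 were 0.03 ± 0.12 in tel1mec1, 0.09 ± 0.11 in rad53, 0.01 ± 0.07 in chk1rad53 and 0.20 ± 0.23 in dun1rad53, against 1.57 ± 0.41 in wild type (SD, n = 2 each). The differences from wild type were -1.54 in tel1mec1 (SE 0.28, adjusted p 0.000851), -1.48 in rad53 (adjusted p 0.000984), -1.56 in chk1rad53 (adjusted p 0.000929) and -1.37 in dun1rad53 (adjusted p 0.00234), all from limma. Of all genes, 7.85% were lower than wild type in tel1mec1, 10.9% in rad53, 7.72% in chk1rad53 and 8.54% in dun1rad53. HSP26 was not called as rising in any of these strains and rose in the other 9, where its means lay between 1.38 in sml1 and 1.84 in ste11.

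In strains lacking MEC1 or TEL1 alone, HSP26 rose and its difference from wild type was not called. HSP26 had 1.50 ± 0.44 in mec1 (SD, n = 2), a difference of -0.07 with a 95% interval of -0.65 to 0.52, and 1.60 ± 0.42 in tel1, a difference of 0.03 with an interval of -0.55 to 0.61. Set directly against the single deletions, tel1mec1 was lower than mec1 (log2 difference -1.48, adjusted p 0.00519) and lower than tel1 (log2 difference -1.57, adjusted p 0.000799). In dun1 HSP26 responded by 1.77 ± 0.35 against 0.09 ± 0.11 in rad53, a difference of 1.68 (adjusted p 0.00136), and of 1.29 (adjusted p 0.00650) without the dun1 array that goes against its label. In mec1 HSP26 was 1.42 above rad53 (adjusted p 0.00674). The double deletions chk1rad53 and dun1rad53 differed from rad53 by -0.08 (interval -0.66 to 0.50) and by 0.11 (interval -0.47 to 0.69).

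The HSP26 call against wild type was kept in all 14 settings that could be fitted for chk1rad53, and in 14 of 15 in each of the other three strains. It was lost with the slide as a fixed block, which leaves 14 residual degrees of freedom, where the values were -1.58 in tel1mec1 (adjusted p 0.200), -1.91 in rad53 (adjusted p 0.364) and -1.95 in dun1rad53 (adjusted p 0.700). On the single slide that held both tel1mec1 and wild type, HSP26 had 0.08 on the tel1mec1 array and 1.56 on the wild-type array, a difference of -1.48. The chk1rad53 arrays lay on a slide of their own, where slide and strain cannot be told apart. The calls against mec1 were lost without mec1 replicate 1, at -1.17 for tel1mec1 (adjusted p 0.183) and 1.11 for mec1 over rad53 (adjusted p 0.233), and tel1mec1 against mec1 also without tel1mec1 replicate 2 (-1.39, adjusted p 0.101). With the slide as a fixed block tel1mec1 minus mec1 was -1.37 (adjusted p 0.800) and dun1 minus rad53 3.06 (adjusted p 0.637). Under the same block mec1 minus rad53 stayed called for HSP26, at 1.705 (adjusted p 0.0248 by limma).

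**Figure D2:**
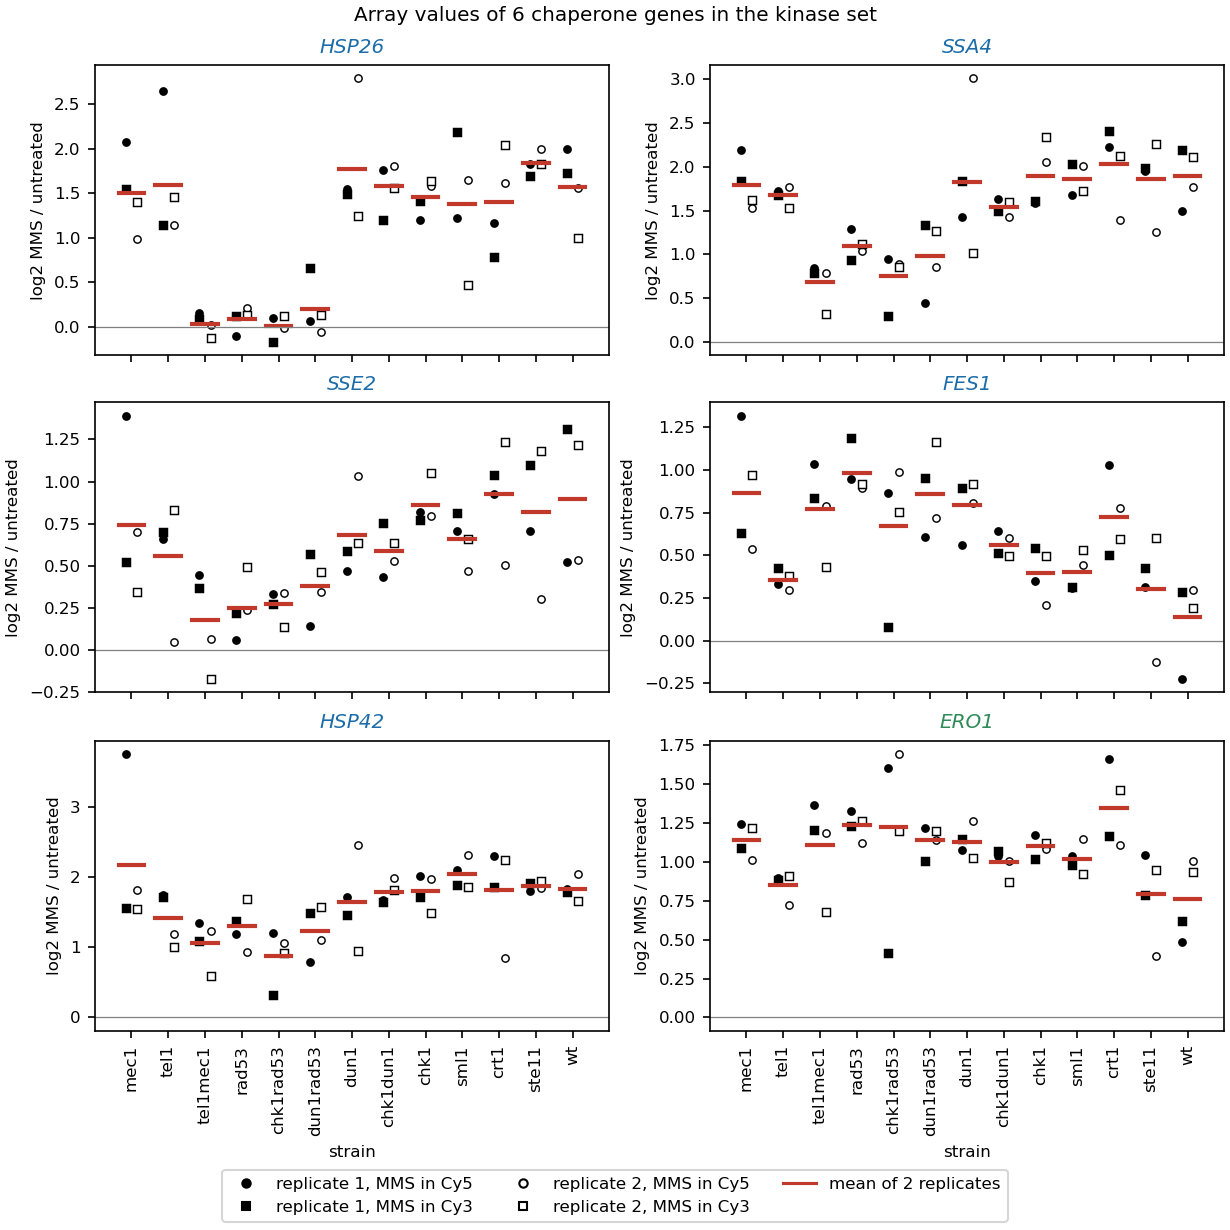
Single-array log2 ratios of MMS over untreated for 6 chaperone genes in the 13 strains of the kinase set, with replicate and dye by symbol and the mean of 2 replicates as a red bar. HSP26 stays between -0.17 and 0.66 in tel1mec1, rad53, chk1rad53 and dun1rad53, against 1.00 to 1.99 in wild type, and FES1 is lowest in wild type, at 0.14.

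SSA4 and SSE2 fell short of wild type in the same 4 strains but, for SSA4, still rose, as SSE2 did in dun1rad53. In tel1mec1 the SSA4 array values were 0.85, 0.78, 0.79 and 0.32, and in rad53 they were 1.30, 0.93, 1.04 and 1.12. The chk1rad53 arrays had 0.94, 0.30, 0.89 and 0.85 and the dun1rad53 arrays 0.45, 1.34, 0.85 and 1.27, against 1.49, 2.20, 1.77 and 2.12 in wild type. No array of these strains reached the lowest wild-type array, and none was at or below 0. The SSA4 differences from wild type were -1.21 in tel1mec1 (SE 0.19, adjusted p 0.000255), -0.80 in rad53 (adjusted p 0.00604), -1.14 in chk1rad53 (adjusted p 0.000557) and -0.92 in dun1rad53 (adjusted p 0.00319), from limma.

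SSE2 had 0.18 ± 0.33 in tel1mec1, 0.25 ± 0.16 in rad53, 0.27 ± 0.05 in chk1rad53 and 0.38 ± 0.04 in dun1rad53, against 0.90 ± 0.03 in wild type (SD, n = 2 each). The differences were -0.72 (adjusted p 0.00400), -0.65 (adjusted p 0.00542), -0.63 (adjusted p 0.0101) and -0.52 (adjusted p 0.0276), in that order of strains, from limma. Single SSE2 arrays of these strains reached 0.57, above the lowest wild-type array of 0.52. Its paralog SSE1, by contrast with SSE2, had 0.19 in tel1mec1 and 0.22 in rad53, against 0.12 in wild type, and neither difference was called.

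These SSA4 and SSE2 calls depended on the scaling of the arrays and on the slide. When all arrays were scaled to one median absolute deviation, none of the 8 differences was called. SSA4 then stood at -0.60 in tel1mec1, -0.19 in rad53, -0.42 in chk1rad53 and -0.26 in dun1rad53, and SSE2 at -0.48, -0.42, -0.27 and -0.23. HSP26 stayed called in all 4 strains after this scaling. With the slide as a fixed block, which could not be fitted for chk1rad53, SSA4 stood at -1.31 in tel1mec1 (adjusted p 0.443), -0.70 in rad53 (adjusted p 0.832) and -0.68 in dun1rad53 (adjusted p 0.919). SSE2 then stood at -0.47 in tel1mec1 (adjusted p 0.748) and -0.33 in rad53 (adjusted p 0.898), and turned to 0.18 in dun1rad53 (adjusted p 0.963). Under that block, in the strains for which it could be fitted, no called difference of the 40 genes from wild type stayed called. Without wild-type replicate 2 the SSA4 call in rad53 was lost (-0.75, adjusted p 0.0514). For SSE2, calls were lost without tel1mec1 replicate 2 (-0.49, adjusted p 0.0939), without rad53 replicate 1 (-0.53, adjusted p 0.0570), without chk1rad53 replicate 1 or 2 (-0.66 and -0.59, adjusted p 0.0533 and 0.0540), and in dun1rad53 without any one of its own or the wild-type replicates (-0.54 to -0.49, adjusted p 0.0892 to 0.151).

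SSA1 differed from wild type by -0.80 in tel1mec1 (adjusted p 0.0262), -0.78 in chk1rad53 (adjusted p 0.0288) and -0.78 in dun1rad53 (adjusted p 0.0259) on the log2 scale, from limma, and by -0.64 in rad53, which was not called (adjusted p 0.0540). SSA1 arrays ran from -0.45 to 0.49 in tel1mec1 and from 0.10 to 0.30 in dun1rad53, against 0.31 to 1.82 in wild type. Much of the difference rested on wild-type replicate 1: without it the values were -0.33 in tel1mec1 (adjusted p 0.345), -0.31 in chk1rad53 (adjusted p 0.386) and -0.31 in dun1rad53 (adjusted p 0.368). The slide as a fixed block turned the sign, to 0.30 in tel1mec1 (adjusted p 0.905) and 0.02 in dun1rad53 (adjusted p 0.996). Leaving out either replicate of the deletion strain also ended each SSA1 call, with values of -0.94 and -0.66 in tel1mec1 (adjusted p 0.0602 and 0.175), -0.78 and -0.77 in chk1rad53 (adjusted p 0.133 and 0.0906) and -0.75 and -0.81 in dun1rad53 (adjusted p 0.142 and 0.102).

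HSP42 rose in all 13 strains and was lower than wild type in 2 of them. It had array values of 1.34, 1.10, 1.23 and 0.59 in tel1mec1 and of 1.21, 0.32, 1.06 and 0.92 in chk1rad53, against 1.83, 1.78, 2.04 and 1.66 in wild type. The arrays did not overlap, and the differences were -0.76 in tel1mec1 (adjusted p 0.0377) and -0.95 in chk1rad53 (adjusted p 0.0104), from limma. In rad53 and dun1rad53 the differences of -0.53 and -0.59 were not called (adjusted p 0.115 and 0.0980). Scaling the arrays to one spread gave -0.07 in tel1mec1 and -0.20 in chk1rad53, which ended both calls. Leaving out any one of the 4 replicates involved ended the tel1mec1 call, with values of -0.92 to -0.61 (adjusted p 0.0725 to 0.219), and it was also lost without the dun1 array that goes against its label (-0.76, adjusted p 0.0548). The chk1rad53 call was lost without its replicate 1 (-0.84, adjusted p 0.109) or wild-type replicate 2 (-0.93, adjusted p 0.0604).

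The disaggregases moved in the same direction with fewer calls. HSP104 had 0.88, 0.58, 0.46 and 0.46 in rad53, against 0.74, 2.05, 1.05 and 1.55 in wild type, which overlap on 1 array, and the difference was -0.75 (SE 0.26, adjusted p 0.0426 by limma). In tel1mec1, chk1rad53 and dun1rad53 the differences of -0.70, -0.58 and -0.56 were not called. HSP78 differed by -0.61 in chk1rad53 (adjusted p 0.0317) and, uncalled, by -0.48 in tel1mec1, -0.51 in rad53 and -0.42 in dun1rad53. SSA3 was lower in tel1mec1, at -0.21 ± 0.08 against 0.21 ± 0.10 in wild type (SD, n = 2 each; difference -0.42, adjusted p 0.0381).

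Scaling the arrays to one spread ended the HSP104 call in rad53 (-0.33, adjusted p 0.393), the HSP78 call in chk1rad53 (-0.16, adjusted p 0.611) and the 3 SSA1 calls (-0.50 to -0.42, adjusted p 0.0940 to 0.160). The HSP104 call in rad53 was lost without any one of the 4 replicates involved, at -0.89 to -0.62 (adjusted p 0.0620 to 0.242). The HSP78 call in chk1rad53 was lost without chk1rad53 replicate 1 (-0.41, adjusted p 0.324) and without either wild-type replicate (-0.52 and -0.70, adjusted p 0.139 and 0.0685). The SSA3 call in tel1mec1 was lost without either tel1mec1 replicate (-0.47 and -0.36, adjusted p 0.0962 and 0.188) and without wild-type replicate 2 (-0.34, adjusted p 0.205).

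Other chaperone genes had a higher response in checkpoint mutants than in wild type, FES1 foremost. FES1 had array values of 0.94, 1.18, 0.89 and 0.92 in rad53, against -0.23, 0.29, 0.30 and 0.19 in wild type. The groups did not overlap, and the responses of 0.98 ± 0.11 and 0.14 ± 0.15 (SD, n = 2 each) differed by 0.85 (SE 0.14, adjusted p 0.000262 by limma), where 10.3% of all genes were higher in rad53. The share of all genes that were lower was 1.05% in mec1 and 0.536% in dun1, where none of the 40 genes was called lower. FES1 was also higher than wild type in mec1 (0.73, adjusted p 0.00519), tel1mec1 (0.63, adjusted p 0.00400), chk1rad53 (0.53, adjusted p 0.0125), dun1rad53 (0.72, adjusted p 0.00127) and dun1 (0.66, adjusted p 0.0315).

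FES1 rose in the 12 deletion strains of the kinase set and was not called in wild type, which had the lowest mean of the 13 strains. The differences of tel1 (0.22), chk1dun1 (0.43), chk1 (0.26), sml1 (0.26), crt1 (0.59) and ste11 (0.17) were not called, and their adjusted p lay between 0.0929 in crt1 and 1.000 in ste11. Higher genes made up 0.501% of all genes in mec1, 5.06% in tel1mec1, 6.31% in chk1rad53, 7.58% in dun1rad53 and 0.0536% in dun1. On the slide that held dun1 and wild type, FES1 had 0.86 as the mean of 2 dun1 arrays and 0.19 on the wild-type array, and on that of tel1mec1 and wild type 0.83 and 0.30. Scaling the arrays to one spread ended the FES1 call in dun1 (0.74, adjusted p 0.0563 by limma).

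Without wild-type replicate 1 the FES1 calls were lost in mec1 (0.62, adjusted p 0.0752), chk1rad53 (0.43, adjusted p 0.0908) and dun1 (0.55, adjusted p 0.165). They were also lost without mec1 replicate 1 (0.62, adjusted p 0.105), tel1mec1 replicate 1 (0.47, adjusted p 0.0907), chk1rad53 replicate 2 (0.33, adjusted p 0.167), and, for dun1, its replicate 2 (0.59, adjusted p 0.360) or wild-type replicate 2 (0.76, adjusted p 0.0635). The calls in rad53 and dun1rad53 stayed whichever replicate was left out. With the slide as a fixed block, which cannot be fitted for chk1rad53, the FES1 values of the other five strains lay between 0.44 in tel1mec1 and 0.70 in dun1, and none was called.

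In rad53 4 further genes were higher than in wild type. BTN2 had 0.90, 1.20, 0.64 and 1.83 in rad53, against -0.70, 1.45, 0.13 and 0.62 in wild type, which overlap, and the difference of the means was 0.77 (adjusted p 0.0255 by limma). CNS1 had 0.11, 0.06, -0.05 and 0.68 in rad53, against -0.30, -0.39, -0.42 and -0.50 in wild type, which do not overlap, with a difference of 0.60 (adjusted p 0.0239). STI1 had 0.73 ± 0.12 against 0.20 ± 0.01 (SD, n = 2 each; difference 0.53, adjusted p 0.0293), with single wild-type arrays between -0.70 and 1.09. All 4 CNS1 values of wild type were negative, and in rad53 3 of 4 were positive.

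ERO1 was the ER gene among them. ERO1 had 1.33, 1.23, 1.12 and 1.26 in rad53 and 1.60, 0.41, 1.69 and 1.20 in chk1rad53, against 0.49, 0.62, 1.01 and 0.94 in wild type. The rad53 arrays lay above all wild-type arrays, and the differences were 0.47 in rad53 (adjusted p 0.0264) and 0.46 in chk1rad53 (adjusted p 0.0387), from limma. Wild type had the lowest ERO1 mean of the 13 strains and crt1 the highest, 1.35. Without wild-type replicate 1 the values were 0.26 and 0.25 and neither was called (adjusted p 0.261 and 0.320).

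The other rad53 calls were less stable than that of FES1. The BTN2 call was lost without any one of the 4 replicates (0.68 to 0.86, adjusted p 0.0506 to 0.157), and the STI1 call without rad53 replicate 2 (0.45, adjusted p 0.188) or either wild-type replicate (0.52 and 0.54, adjusted p 0.0816 and 0.108). The CNS1 call was lost without rad53 replicate 2 (0.49, adjusted p 0.186) or wild-type replicate 2 (0.55, adjusted p 0.132). The ERO1 call was lost without either rad53 replicate (0.43 and 0.51, adjusted p 0.112 and 0.0797), and in chk1rad53 without its replicate 2 (0.24, adjusted p 0.359).

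In mec1 a second gene, HSP30, was called, and it rested on 1 array. HSP30 (YCR021C), a membrane protein gene induced by heat and other stresses whose product lowers the activity of the plasma membrane proton pump, had 3.30, 0.57, 1.17 and 0.56 in mec1, against 0.06, 0.69, 0.32 and 0.26 in wild type. The first mec1 array lay far above the other three, and single arrays of the groups overlapped. The difference of 1.07 was called (adjusted p 0.0288 by limma). It was 0.39 without that array and those of dun1 and chk1rad53 named above (adjusted p 0.440), 0.53 without mec1 replicate 1 (adjusted p 0.461), and 1.11 and 1.02 without wild-type replicate 1 and 2 (adjusted p 0.0901 and 0.175).

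Further direct contrasts between deletion strains followed the same genes. Tel1mec1 was lower than mec1 for 5 of the 40 genes (0.661% of all genes were higher and 1.72% lower), HSP26 and SSA4 (-1.11), HSP42 (-1.11), AHA1 (-0.59) and HSP30 (-1.31), with an adjusted p of 0.00252 to 0.0349 from limma. Without mec1 replicate 1 none of these 5 was called, at -0.89 for SSA4, -0.62 for HSP42, -0.36 for AHA1 and -0.77 for HSP30, and without tel1mec1 replicate 2 they were not called either, at -0.98, -0.95, -0.40 and -1.38. HSP30 was also lost without tel1mec1 replicate 1 (-1.24, adjusted p 0.0690). Against tel1, tel1mec1 was lower for 3 genes (2.86% of all genes were higher and 6.63% lower), HSP26, SSA4 (-0.99, adjusted p 0.00179) and SSA3 (-0.52, adjusted p 0.0119), of which SSA3 was lost without tel1 replicate 2 (-0.28) or tel1mec1 replicate 2 (-0.47) and SSA4 after scaling to one spread (-0.68, adjusted p 0.120).

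Mec1 was higher than rad53 for 5 genes (3.93% of all genes were higher) and lower for CNS1 (4.81% were lower). Besides HSP26 they were HSP104 (0.92), HSP42 (0.87), SSA4 (0.70) and HSP78 (0.65), with an adjusted p of 0.0269 to 0.0328, and CNS1 differed by -0.65 (adjusted p 0.0326), from limma. Without mec1 replicate 1 these were 0.54, 0.39, 0.48, 0.26 and -0.42, and none was called. Without either rad53 replicate they were not called, at 1.05 and 0.79 for HSP104, 0.86 and 0.89 for HSP42, 0.72 and 0.68 for SSA4, 0.59 and 0.72 for HSP78 and -0.77 and -0.54 for CNS1.

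Dun1 was higher than rad53 for HSP26 and SSA4 (2.82% of all genes were higher and 1.11% lower). For SSA4 the difference was 0.73 (adjusted p 0.0411) and fell to 0.23 (adjusted p 0.559) without the dun1 array that goes against its label, whereas HSP26 stayed called without that array, as did FES1 in dun1 against wild type (0.69, adjusted p 0.0173). SSA4 was also not called without dun1 replicate 2 (0.53), rad53 replicate 1 (0.74) or rad53 replicate 2 (0.71). Scaling to one spread ended the SSA4 calls of dun1 minus rad53 (0.66, adjusted p 0.133) and mec1 minus rad53 (0.75, adjusted p 0.0701), from limma. For chk1rad53 minus rad53, dun1rad53 minus rad53, chk1dun1 minus dun1 and crt1 minus dun1, limma called 0 of the 40 genes. At an unadjusted p under 0.05 there were 6, 1, 1 and 2, and the share of all genes at that threshold was not computed. At the adjusted threshold limma called 0% of all genes in the contrasts of chk1rad53, dun1rad53 and chk1dun1, and in crt1 minus dun1 0.501% were higher and 0.197% lower.

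For 6 deletion strains limma called 0 of the 40 differences from wild type. At an unadjusted p under 0.05 there were 3 in tel1, 4 in chk1dun1, 3 in chk1, 0 in sml1, 6 in crt1 and 0 in ste11. The share of all genes at that unadjusted threshold was not computed, and the shares that follow are at the adjusted one. Of all genes, 0% were called in tel1, sml1 and ste11, 0.0179% were higher and 0% lower in chk1, 0.0179% higher and 0.25% lower in crt1, and 0.0358% higher and 0.483% lower in chk1dun1. In crt1 the 2 highest were STI1 (0.60) and FES1 (0.59), and in chk1dun1 HSP82 (0.65, interval 0.15 to 1.16), which missed the threshold. The median half-width of the 95% intervals was 0.34, so smaller differences could not be told from 0 with 2 replicates. These intervals are not adjusted for the number of genes, whereas calls were. Differences well above 0.34, such as 0.65 for HSP82 in chk1dun1 and 0.59 for FES1 in crt1, were not called either.

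**Figure D3:**
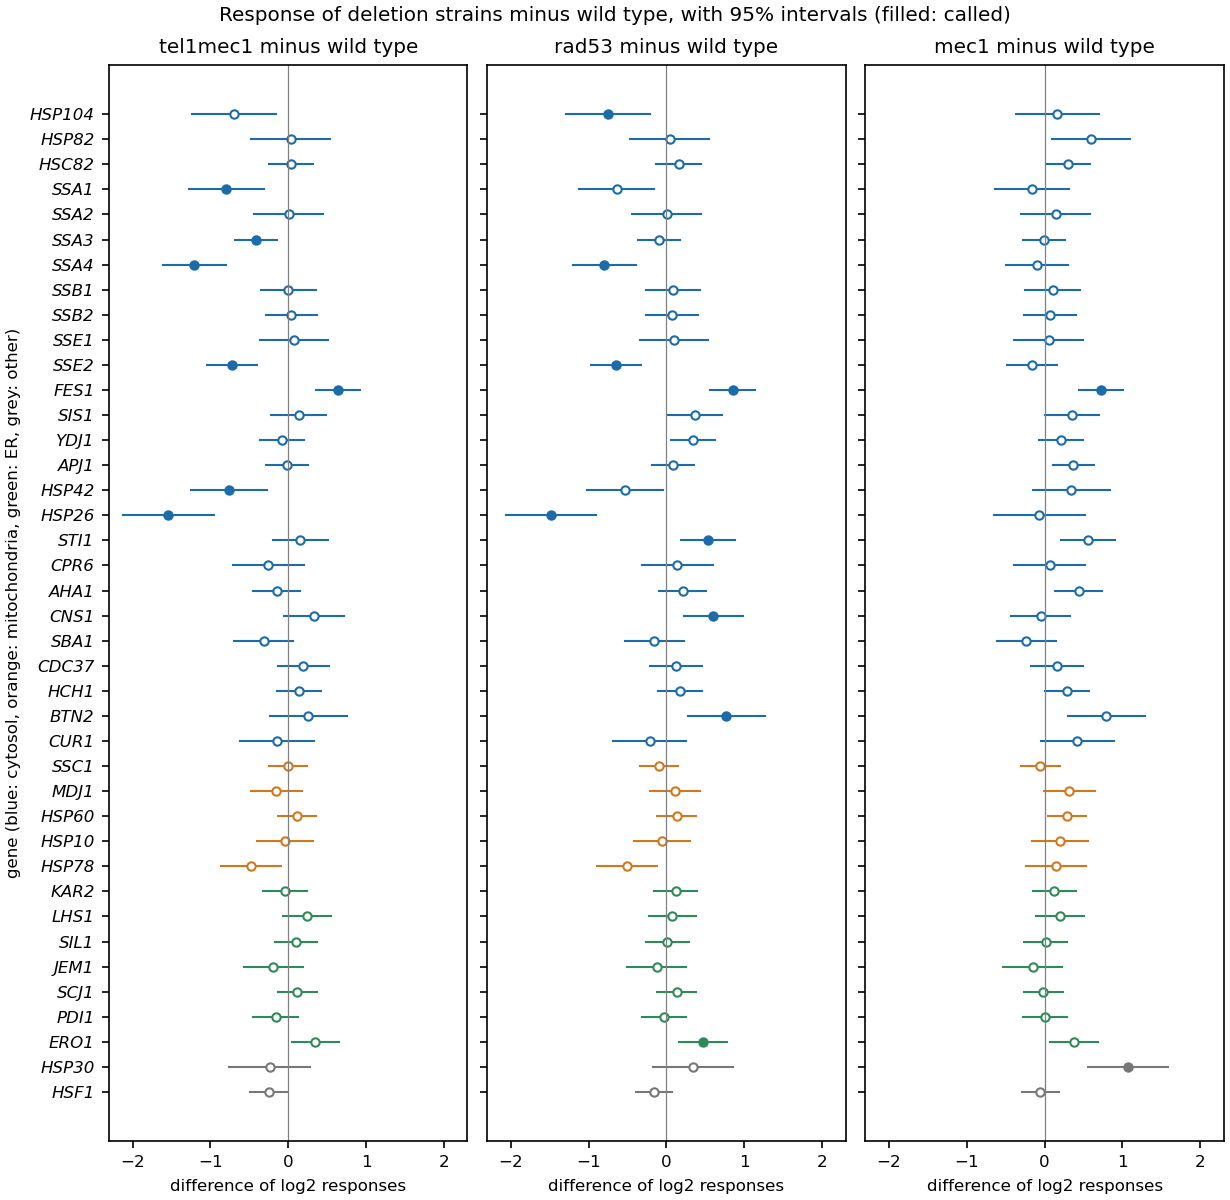
Response in tel1mec1, rad53 and mec1 minus that in wild type for the 40 genes, on the log2 scale, with 95% intervals from limma and filled points for called differences. HSP26 lies at -1.54 (tel1mec1), -1.48 (rad53) and -0.07 (mec1), while FES1 lies right of 0 in all 3 panels, at 0.63, 0.85 and 0.73.

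By median, the ER genes varied least between strains in each set. The span of a gene's response runs from its lowest to its highest strain mean. In the kinase set its median was 0.62 over the cytosolic genes (0.34 to 1.83, the highest for HSP26). It was 0.48 over the mitochondrial and 0.38 over the ER genes (0.21 to 0.59). In the factor set the medians were 0.26 (cytosolic), 0.29 (mitochondrial) and 0.18 (ER). A span also takes in the spread between arrays and tends to grow with the number of strains. There were 13 strains in the kinase set and 5 in the factor set, so spans cannot be compared between the sets. In the kinase set mec1, with its array that stood apart, was the highest strain for HSP78, MDJ1, HSP60 and HSP10. No ER gene was called lower than wild type in any of the 12 deletion strains, and ERO1 was the only ER gene called higher. In tel1 the ER values were the lowest, with a median of 0.19, and 2 of 7 rose, PDI1 having 0.04 ± 0.17 against 0.33 ± 0.02 in wild type (SD, n = 2 each), a difference that was not called.

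Cytosolic genes had a higher median response than mitochondrial genes in all 13 strains, and in 11 of them both replicate medians lay above both of the mitochondrial ones. Against the ER genes the cytosolic median was higher in 10 of 13 strains, with replicates apart in 5, and it was never lower with replicates apart. Cytosolic medians lay between 0.26 in tel1mec1 and 0.71 in mec1, mitochondrial medians between -0.02 in tel1 and 0.35 in mec1, and ER medians between 0.19 in tel1 and 0.44 in chk1rad53. Of gene and strain pairs, 205 of 338 cytosolic, 27 of 65 mitochondrial and 67 of 91 ER pairs were higher.

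**Figure D4:**
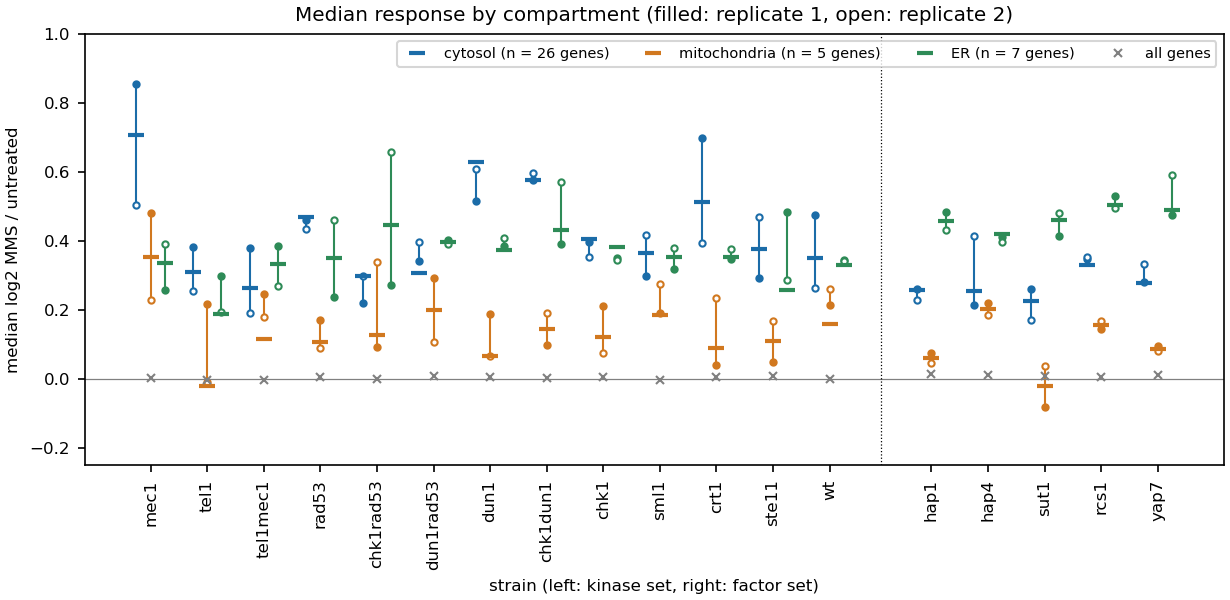
Median response (log2 of MMS over untreated) of the cytosolic, mitochondrial and ER chaperone genes in each of 18 strains, with a short bar for the median of strain means, points for the medians in replicate 1 (filled) and 2 (open) and crosses for all genes. Mitochondrial medians lie below cytosolic ones in every strain, and ER medians lie above cytosolic ones in all 5 strains of the factor set.

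In the 5 strains of the factor set, 128 of 200 pairs were higher and 11 lower. The number of genes that rose was 25 in hap1 (30.1% of all genes rose there), 27 in hap4 (29.3%), 21 in sut1 (24.7%), 28 in rcs1 (29.6%) and 27 in yap7 (29.4%). In these total RNA samples 20 of the 40 genes rose in all 5 strains, among them 6 of the 7 ER genes. The share of all genes that rose in all 5 strains was not computed and can be at most 24.7%, the share in sut1. Of ER pairs 34 of 35 were higher, the exception being KAR2 in sut1 (0.14). The ER median was higher than the cytosolic one in all 5 strains, with replicates apart in 4, and lay between 0.42 in hap4 and 0.50 in rcs1, while cytosolic medians lay between 0.23 and 0.33.

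HSP26 rose in all 5 strains of the factor set, from 1.25 in hap4 to 1.97 in sut1, as did SSA4 (1.43 to 1.85), HSP42 (1.01 to 1.47) and HSP104 (0.97 to 1.51). The mitochondrial genes divided. HSP78 rose by 0.51 to 1.11 and MDJ1 had 0.32 to 0.62, whereas SSC1, the matrix Hsp70 gene, fell in 4 strains and HSP60 in 3. Of all genes, 27% fell in hap1, 26.1% in hap4, 22.5% in sut1, 27.3% in rcs1 and 26.2% in yap7.

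SSC1 had responses of -0.22 in hap1, -0.14 in hap4, -0.42 in sut1, -0.22 in rcs1 and -0.34 in yap7. HSP60 had -0.12, -0.20, -0.40, -0.10 and -0.36 in the same strains. In the kinase set neither was called lower in any strain, and the sets differ in RNA preparation, array design and strains, which cannot be told apart. SSA2 was also lower in hap1 (-0.39), sut1 (-0.38) and yap7 (-0.33), and SSB2 in hap1 (-0.22).

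When each strain of the factor set was set against the mean of the other four, 1 difference was called. CUR1 had array values of 0.58, 0.00, -0.16 and 0.66 in sut1, and its mean of 0.27 ± 0.03 (SD, n = 2) compares with 0.69 over the other strains, a difference of -0.42 (SE 0.07, adjusted p 0.0492 by limma), where 0.0715% of all genes were higher and 0.197% lower. Arrays with opposite dyes of one replicate lay far apart, and the replicate means did not. The low arrays were replicate 1 with MMS in Cy3 and replicate 2 with MMS in Cy5, so the gap did not follow the dye. HSP78 showed the same pattern in sut1, with 0.99, 0.09, 0.04 and 0.90. The replicate means of CUR1 lay close because each averaged a low and a high array, so its SD understates the spread between arrays. The call was lost without sut1 replicate 1 (-0.44, adjusted p 0.120) or 2 (-0.39, adjusted p 0.339) and when arrays were centred on their median (-0.42, adjusted p 0.0521). In hap1, hap4, rcs1 and yap7 limma called 0 of the 40 genes, with 1, 5, 7 and 1 at an unadjusted p under 0.05. In sut1 16 of the 40 genes were under that unadjusted threshold, 14 lower and 2 higher. The share of all genes at an unadjusted p under 0.05 was not computed. Of all genes, 1.31% were higher and 0.304% lower in hap1, 0.93% and 1.45% in hap4, 0.0715% and 0.197% in rcs1, and 0.0358% and 0.0179% in yap7.

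Other folding genes were listed by complex or compartment, and their counts in wild type stand against 26.8% of all genes higher and 25.4% lower. Of 8 genes of the cytosolic chaperonin TRiC, 3 rose and 0 fell, with a median of 0.18 and a range from TCP1 (0.12) to CCT8 (0.47), and of 6 prefoldin genes 0 rose and 1 fell (PAC10, -0.33; GIM4 was highest at 0.30). Of 18 further cytosolic genes 5 rose and 5 fell, from PPT1 (-0.94), an Hsp90-bound phosphatase, to HSP31 (2.76 ± 0.06, SD, n = 2), a stress-induced glyoxalase and chaperone. Of 10 further mitochondrial genes 1 rose (SSQ1, an Hsp70 of iron-sulfur cluster assembly, 0.43) and 1 fell (MDJ2, -0.60). Of 14 further ER folding and quality control genes 6 rose and 1 fell, from IRE1 (-0.45), the sensor of the unfolded protein response, to MPD1 (0.61), a protein disulfide isomerase.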

How the data were processed

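Microarrays with 2 colours measured MMS-treated against untreated RNA of 1 strain each, 52 arrays in 13 strains and 20 arrays in 5 strains. The authors deposited normalized log2 ratios of Cy5 over Cy3 per probe, made with limma per the submitters' processing notes; base 2 is assumed, and background correction, normalization method and centring are not given in the sources used here. Array medians lay between -0.0183 and 0.0211 and between -0.0116 and 0.00942. Depth has no meaning for arrays, and their number limits the precision: median half-widths of 95% intervals were 0.24 for a response and 0.34 for a difference in the kinase set, and 0.168 and 0.187 in the factor set.

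The sign was turned on arrays that carried MMS in Cy3, probes with 1 symbol were averaged per gene, and the 2 arrays of a replicate were averaged. The direction follows from the dyes in the labels; opposite-dye arrays as deposited correlated at -0.876 to -0.174 and at -0.847 to -0.633. Strain means were fitted by table with limma 3.58.1 (R 4.3.3, statmod 1.5.0), with 13 and 5 residual degrees of freedom, and p-values were adjusted by Benjamini-Hochberg over all genes, called under 0.05. No test crossed the tables. Summaries and figures used Python 3.11.15, pandas 2.3.3 and matplotlib 3.10.9. The code was tested on simulated data. Columns of per-sample values left unmapped numbered 0.

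All 40 genes could be named, and of each further list the genes with the highest and lowest wild-type response. Members and lists were chosen with earlier results of these data known. Replicate numbers did not pair samples: deviations of wild type and a deletion strain correlated at -0.462 to 0.315, above 0.1 in 5 of 12. Alternatives were centring, scaling, probe choice, blocks, a trended robust fit and leaving out replicates or arrays. The correlation of arrays within a replicate was -0.196 in the kinase set and -0.0966 in the factor set, and within a slide -0.114 in the kinase set. With a negative correlation within replicates, replicate means lie closer together than the spread of single arrays implies, so the SDs given can understate that spread. Promoter, protein and probe sequences were not used here.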

Additional observations from a re-analysis of the deposited data

Results flagged for a closer look

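Of the differences between strains tested for the 40 genes, 49 passed limma's adjusted threshold, and each is a response that differed between the strains named. In mec1 minus wild type, the called log2 differences were FES1 (0.73) and HSP30 (1.07). In tel1mec1 minus wild type, the called log2 differences were SSA1 (-0.80), SSA3 (-0.42), SSA4 (-1.21), SSE2 (-0.72), FES1 (0.63), HSP42 (-0.76) and HSP26 (-1.54). In rad53 minus wild type, the called log2 differences were HSP104 (-0.75), SSA4 (-0.80), SSE2 (-0.65), FES1 (0.85), HSP26 (-1.48), STI1 (0.53), CNS1 (0.60), BTN2 (0.77) and ERO1 (0.47). In chk1rad53 minus wild type, the called log2 differences were SSA1 (-0.78), SSA4 (-1.14), SSE2 (-0.63), FES1 (0.53), HSP42 (-0.95), HSP26 (-1.56), HSP78 (-0.61) and ERO1 (0.46). In dun1rad53 minus wild type, the called log2 differences were SSA1 (-0.78), SSA4 (-0.92), SSE2 (-0.52), FES1 (0.72) and HSP26 (-1.37). In dun1 minus wild type, the called log2 difference was FES1 (0.66). In tel1mec1 minus mec1, the called log2 differences were SSA4 (-1.11), HSP42 (-1.11), HSP26 (-1.48), AHA1 (-0.59) and HSP30 (-1.31). In tel1mec1 minus tel1, the called log2 differences were SSA3 (-0.52), SSA4 (-0.99) and HSP26 (-1.57). In mec1 minus rad53, the called log2 differences were HSP104 (0.92), SSA4 (0.70), HSP42 (0.87), HSP26 (1.42), CNS1 (-0.65) and HSP78 (0.65). In dun1 minus rad53, the called log2 differences were SSA4 (0.73) and HSP26 (1.68). In sut1 minus the mean of the other four strains, the called log2 difference was CUR1 (-0.42). The comparisons with wild type share its arrays.

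Among 342 groups of 4 arrays, 21 had 1 array whose gap to the others exceeded Dixon's 95% critical value, a rate that chance alone gives in about 1 of 20 groups. None of these was the dun1 array that goes against its label (0 of 21). Dixon's test sets the gap against the range of the 4 values, so a gap called far below can be small on the log2 scale. BTN2 had 0.64 on tel1 replicate 1 with MMS in Cy3, far from the other arrays of the strain. CUR1 had 2.06 on mec1 replicate 1 with MMS in Cy5, far from the other arrays of the strain. ERO1 had 0.72 on tel1 replicate 2 with MMS in Cy5, apart from the other arrays of the strain by a small gap (0.89 to 0.91). HSP104 had 0.67 on chk1 replicate 1 with MMS in Cy3, far from the other arrays of the strain. HSP30 had -0.027 on rad53 replicate 2 with MMS in Cy3, far from the other arrays of the strain. HSP42 had 3.76 on mec1 replicate 1 with MMS in Cy5, far from the other arrays of the strain. HSP78 had 2.42 on mec1 replicate 1 with MMS in Cy5 and 1.65 on ste11 replicate 2 with MMS in Cy3, each far from the other arrays of its strain. SSA4 had 0.32 on tel1mec1 replicate 2 with MMS in Cy3, 0.30 on chk1rad53 replicate 1 with MMS in Cy3 and 1.14 on sut1 replicate 2 with MMS in Cy5, each far from the other arrays of its strain. STI1 had 0.57 on chk1rad53 replicate 1 with MMS in Cy5 and 0.36 on chk1dun1 replicate 1 with MMS in Cy5, each far from the other arrays of its strain. The median of the cytosolic members had 0.10 on sml1 replicate 1 with MMS in Cy5, 0.87 on wild-type replicate 1 with MMS in Cy3, 0.23 on hap4 replicate 1 with MMS in Cy3 and 0.49 on rcs1 replicate 2 with MMS in Cy5, each far from the other arrays of its strain. The median of the mitochondrial members had -0.043 on chk1dun1 replicate 1 with MMS in Cy5, far from the other arrays of the strain. CNS1 had -0.57 on hap4 replicate 1 with MMS in Cy5, far from the other arrays of the strain. SSA1 had 0.19 on hap1 replicate 2 with MMS in Cy5, far from the other arrays of the strain. The median of the ER members had 0.43 on yap7 replicate 1 with MMS in Cy3, apart from the other arrays of the strain by a small gap (0.52 to 0.54).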

How the results depend on the processing

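The calls depended most on the slide as a fixed block, on scaling to one spread and on the wild-type replicates, and the cause was not tested. Of 32 called differences from wild type, 32 were kept after centring, with either other choice of probes and with the replicate block (32 calls), 30 with the replicate as a random block, 27 with the slide as a random block, 27 with a trended robust fit, 16 after scaling to one spread, 31 without the dun1 array, 31 without 3 arrays, 17 without wild-type replicate 1 and 20 without wild-type replicate 2. Each of the 40 genes had 1 probe, so another choice of probes left their values unchanged and could move a call only through the fit over all genes. Array medians of the kinase set already lay between -0.0183 and 0.0211, so centring could change little. The replicate block also gave 0 lower calls in the factor set, against 1. That count was 0 with all probes, after centring and with a trended robust fit, and 2 with the replicate as a random block.

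After scaling, differences from wild type numbered 24 higher and 5 lower, against 12 and 20. By strain, higher genes were then 4 in mec1, 2 in tel1mec1, 9 in rad53, 6 in dun1rad53, 0 in dun1 and 1 in chk1dun1, and lower genes 2 in tel1mec1 and 1 each in rad53, chk1rad53 and dun1rad53. Wild-type medians were 0.23 (ER) and 0.11 (mitochondria), and the ER median was 0.32 after centring and 0.34 with the slide as a random block. With the slide as a fixed block, chosen after seeing the data, 0 genes were higher in mec1, tel1mec1, rad53, dun1rad53 and dun1 and 0 lower in tel1mec1, rad53 and dun1rad53, and 3 values changed sign: SSA1 in tel1mec1 (0.30) and dun1rad53 (0.023) and SSE2 in dun1rad53 (0.18). The slide as a random block gave 1 higher gene in mec1, 3 in rad53 and 2 in direct contrasts (against 7). The trended robust fit gave 1 in chk1rad53, 0 in dun1 and 3 in direct contrasts. Without 3 arrays there were 1 in mec1, 2 in dun1rad53, 1 in crt1, and 3 higher and 5 lower (against 9) in direct contrasts, and crt1 had 2 with the replicate as a random block.

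Where leaving out 1 replicate moved a count by over 1.5 times, it came to 4 to 14 higher and 13 to 25 lower against wild type, 2 to 12 higher and 3 to 14 lower in direct contrasts, and 0 to 1 lower in the factor set. By strain, higher genes came to 0 to 3 in mec1, 0 to 2 in tel1mec1, 1 to 3 in rad53, 0 to 3 in chk1rad53, 1 to 2 in dun1rad53, 0 to 1 in dun1 and 0 to 1 in crt1. Lower genes came to 2 to 4 in tel1mec1, 2 to 3 in rad53, 2 to 4 in chk1rad53, 2 to 3 in dun1rad53 and 0 in the wild-type response. The promoter motif search and its alternative were not run.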
